A study of Rattus norvegicus with 5 samples.

Results

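Microglia are the resident macrophages of the brain, and they share many transcripts with macrophages of the meninges and the choroid plexus and with blood leukocytes. They take up debris and surplus synapses, tag them with complement, follow the neuronal chemokine fractalkine and break down what they swallow with lysosomal cathepsins. Under injury or during development a fraction of them also makes galectin-3 and osteopontin. A set of 10 genes with such roles was followed in rat hippocampus: C1qb, Cx3cr1, Cxcr1, Alox5ap, Ctss, Ctsb, Lgals3, Spp1, Cd53 and Aif1. All 10 were found among the 4736 genes that have a probe set with exactly 1 gene symbol on the array, by 14 such probe sets. The genes were selected by name, on their role and on intensities of the fetal alcohol and control diet arrays already seen. The differences of the 10 genes between these groups, and between fetal alcohol and isocaloric diet, are therefore given as a description, with no test.

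The samples were total RNA of rat hippocampus labelled P5, on 5 single-colour arrays: 2 from fetal alcohol exposed rats, 1 from an isocaloric diet and 2 from a control diet. The isocaloric diet is a feeding control for alcohol diets. For the route, dose and timing of the alcohol, the strain, the sex and any pooling of animals the sources used here give nothing, so the spread between arrays of a group may be technical. The median intensity over all probe sets lay between 49.3 and 56.0 on the 5 arrays, and the fetal alcohol arrays were the pair farthest apart, with an SD of log2 differences of 0.51, against 0.34 for the control diet pair. Nrgn, neurogranin of forebrain neurons, measured 2161 and 1720 on the fetal alcohol arrays, 1474 on the isocaloric one and 1536 and 1546 on the control diet arrays, so the labelled tissue carried a neuronal marker on every array. Of 17 microglia and macrophage markers, 9 had a probe set. Csf1r, the growth factor receptor that microglia need to survive, was under the log offset of 10.6 on all 5 arrays. Itgam, the integrin CD11b, lay between 6.52 and 12.3. P2ry12, a nucleotide receptor of microglia that is named here after its values were seen, measured 37.0 and 41.3 on the fetal alcohol arrays, 43.6 on the isocaloric one and 39.6 and 31.7 on the control diet arrays. In RNA from whole tissue, fewer cells of a type and less RNA per cell cannot be told apart.

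The data show low Alox5ap and Cxcr1 signals on both fetal alcohol arrays. The other 8 genes had smaller differences, and at their brightest probe sets all of them but Cd53 overlapped with the control diet arrays. Over the 10 genes, each at its brightest probe set, the median log2 difference of fetal alcohol from control diet was -0.31, with 7 below 0 and 3 above, beside a median of 0.0049 over all 5244 tested probe sets. The 10 genes ran from -1.40 to 0.11. Control diet array 2 set much of that median: without it the median was -0.047, and without control diet array 1 it was -0.49. Differences are on the scale of log2(intensity + 10.6), where changes of dim probe sets come out smaller than they are. Those under the 40th percentile of mean signal were not tested, which left 10 of the 14.

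**Figure D1:**
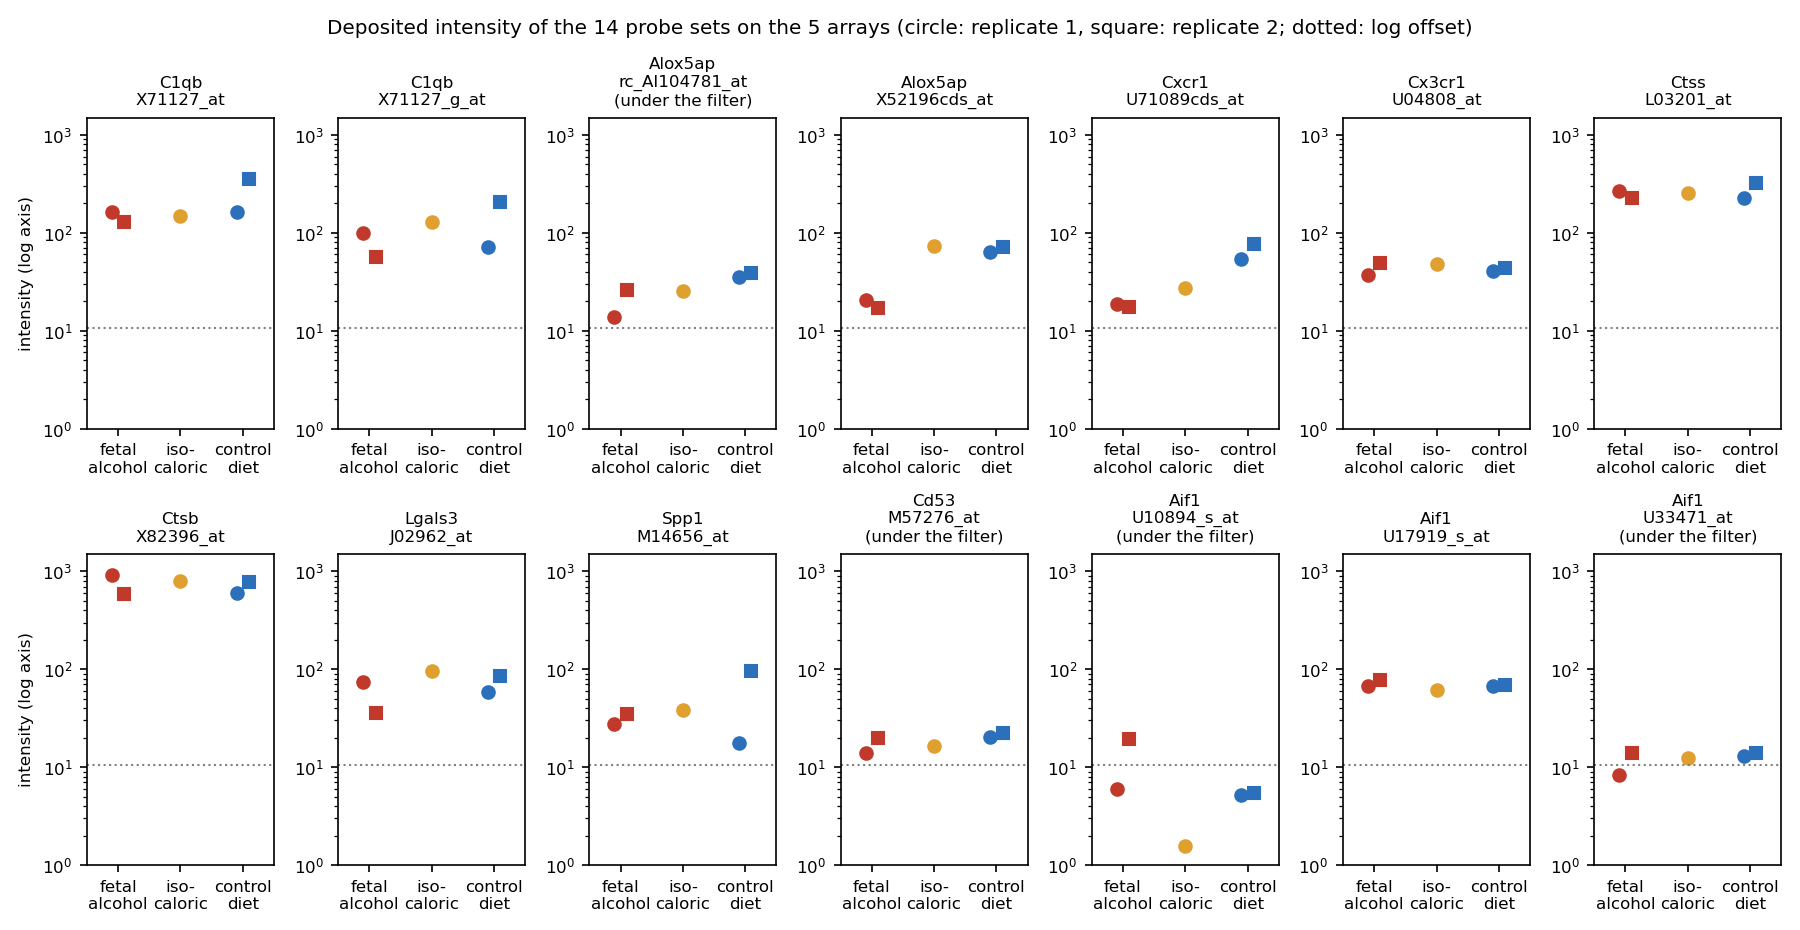
Deposited intensity (vertical log axis) of the 14 probe sets on the fetal alcohol, isocaloric and control diet arrays, with a circle for replicate 1, a square for replicate 2 and the log offset of 10.6 dotted. Both fetal alcohol values lie below both control diet values for the 2 Alox5ap probe sets, Cxcr1 and Cd53, and control diet array 2 lies above array 1 in all 14 panels.

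Of the 14 probe sets, 4 had both fetal alcohol arrays below both control diet arrays and 1 had both above. Among the 10 tested probe sets these counts were 2 and 0. Over all tested probe sets, 17.7% lay below in this way and 16.8% above. The 2 tested ones, for Alox5ap and Cxcr1, were also at least 1.5-fold lower, as were 3.91% of all tested probe sets. The genes were chosen with this contrast in view, so nothing is read from these counts. Over all 5244 probe sets limma called 0 past an adjusted p of 0.05 (0% called), with 294 at an unadjusted p under 0.05.

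Alox5ap encodes FLAP, the membrane protein that hands arachidonic acid to 5-lipoxygenase for leukotriene synthesis, and it is made mainly by myeloid cells. Its probe set X52196cds_at measured 20.7 and 17.1 on the fetal alcohol arrays, 73.7 on the isocaloric one and 63.9 and 71.0 on the control diet arrays. The fetal alcohol arrays were the lowest, and the isocaloric array stood just above the control diet arrays. The means were 18.9 ± 2.55 after fetal alcohol and 67.4 ± 5.02 on control diet (SD, n = 2 each). On the log2 scale the difference from control diet was -1.40 ± 0.24 (SE), and that from isocaloric diet -1.52 ± 0.29. It ran from -1.49 to -1.32 against control diet with 1 array left out. Its fetal alcohol values are dim, and the probe set passed the filter on low values through the other arrays.

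The second Alox5ap probe set, rc_AI104781_at, was dimmer and under the filter. Its intensity was 13.9 and 26.2 on the fetal alcohol arrays, 25.5 on the isocaloric one and 35.3 and 38.9 on the control diet arrays. Fetal alcohol again lay below control diet on both arrays, by -0.67, but the isocaloric array lay with the fetal alcohol arrays here and with the control diet arrays at the brighter probe set. The probe sets of this gene thus agree in direction for fetal alcohol against control diet and disagree for the isocaloric array.

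The partners of FLAP were measured as well. Alox5, the 5-lipoxygenase it serves, was under the offset on all arrays, with 3.52 and 3.57 on the fetal alcohol arrays, 2.38 on the isocaloric one and 4.58 and 4.53 on the control diet arrays. Lta4h, which turns leukotriene A4 into B4, differed from control diet by 0.08 ± 0.23 on the log2 scale (limma adjusted p = 0.997), Hpgds, a prostaglandin D synthase, 0.14 ± 0.28 (0.994), and Alox15, a lipoxygenase of another position, -0.01 ± 0.27 (0.997). Of the 8 leukotriene and prostaglandin genes on the array 3 were tested, and none passed.

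Cxcr1 encodes a chemokine receptor that in human binds interleukin-8 and sits on neutrophils. Its intensity was 18.8 and 17.5 on the fetal alcohol arrays, 27.2 on the isocaloric one and 54.4 and 77.5 on the control diet arrays. Both the fetal alcohol arrays and the isocaloric array lay below the control diet arrays, with the fetal alcohol arrays lowest. The means were 18.1 ± 0.893 after fetal alcohol and 65.9 ± 16.3 on control diet (SD, n = 2 each). The log2 difference was -1.40 ± 0.26 from control diet and -0.40 ± 0.32 from isocaloric diet. With 1 array left out the difference from control diet ran from -1.61 to -1.18. For isocaloric minus control diet the log2 difference was -1.001 ± 0.32. Cxcr1 stood just over the filter, at percentile 40.5 of mean signal, and passed it only through its control diet arrays, so no p is given for it.

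The promoter window of Cxcr1, 250 bases before to 50 after its annotated start, is shown because this was the member with the largest difference for which RefSeq gave a window in build GRCr8. It lies at chr9:83220176-83220475 on the minus strand, is printed in the direction of the gene, and holds neither motif searched, so all its letters are in lower case.
Cxcr1: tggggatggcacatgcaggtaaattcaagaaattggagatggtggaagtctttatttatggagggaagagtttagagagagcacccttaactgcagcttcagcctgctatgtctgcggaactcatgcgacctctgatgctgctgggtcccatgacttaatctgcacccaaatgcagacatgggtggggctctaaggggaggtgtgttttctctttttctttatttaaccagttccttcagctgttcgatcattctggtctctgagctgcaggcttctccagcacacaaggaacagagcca
The motifs were GAGGAA, the core bound by the myeloid factor PU.1, and the interferon regulatory factor motif, 2 copies of GAAA with 2 bases of any kind between them, each on both strands. Windows were available for 6 of the 10 genes, and 3 of these held GAGGAA, beside 27.6% of 33469 windows of 300 bases over all genes. The interferon regulatory factor motif stood in 1 of the 6 and in 3.92% of all windows. A match is a string of letters and not a binding site, and its absence says nothing of the factor.

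Cx3cr1 is the receptor for fractalkine and one of the best known markers of microglia. Its intensity was 37.1 and 48.7 on the fetal alcohol arrays, 48.0 on the isocaloric one and 40.7 and 43.5 on the control diet arrays. The fetal alcohol values lay on either side of the control diet values, and the log2 difference was 0.01 ± 0.24. Between isocaloric and control diet it was 0.15 ± 0.30 (limma adjusted p = 0.954). Its ligand Cx3cl1, fractalkine itself, which neurons make, had 3 tested probe sets that disagreed: the log2 differences of fetal alcohol from control diet were 0.28 ± 0.26, -0.31 ± 0.25 and -0.07 ± 0.27, with the smallest limma adjusted p at 0.965. The brightest of them measured 672 and 898 on the fetal alcohol arrays, 542 on the isocaloric one and 552 and 736 on the control diet arrays. Of the other chemokine genes tested, Pf4, platelet factor 4, which brain macrophages also make, had a log2 difference of -0.35 ± 0.30 (adjusted p = 0.965) and Cxcr4 one of -0.09 ± 0.24 (0.995). None of the 4 tested chemokine and receptor genes passed, of 17 on the array.

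C1qb encodes a chain of C1q, the complement component that starts the classical cascade and in brain comes mainly from microglia. Its probe set X71127_at measured 162 and 129 on the fetal alcohol arrays, 147 on the isocaloric one and 162 and 354 on the control diet arrays. Control diet array 2 stood alone, and the other 4 arrays lay close together. The log2 difference of fetal alcohol from control diet was -0.69 ± 0.35, and it was -0.15 without control diet array 2 and -1.23 without array 1. The second C1qb probe set, X71127_g_at, which was designed on the same accession, measured 99.7 and 56.1 on the fetal alcohol arrays, 128 on the isocaloric one and 72.0 and 207 on the control diet arrays. Control diet array 2 was again the highest, and the remaining arrays were more spread. Its log2 difference was -0.64 ± 0.44, with 0.06 when control diet array 2 was left out.

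C1qc, another chain of C1q, was tested at 1 probe set of 3. Its intensity was 84.4 and 60.2 on the fetal alcohol arrays, 99.0 on the isocaloric one and 86.0 and 136 on the control diet arrays, a log2 difference of -0.54 ± 0.28 from control diet (limma adjusted p = 0.913). Control diet array 2 was the highest here as well. The other 2 C1qc probe sets, under the filter, gave -1.16 and -0.15. Among other complement genes Cd59b, an inhibitor of the membrane attack complex, had -0.11 ± 0.29 (adjusted p = 0.995), and C5ar1, the receptor for the fragment C5a, had 0.10 ± 0.23 (0.995) at its brighter probe set and -0.44 ± 0.27 (0.949) at the other. None of the 5 tested complement and Fc receptor genes passed.

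The promoter window of C1qb is shown for comparison with that of Cxcr1, since it holds GAGGAA at positions -247 and -90 from the annotated start, the second on the other strand and so printed as TTCCTC. It lies at chr5:154407778-154408077 on the minus strand in GRCr8, and capitals mark the matches.
C1qb: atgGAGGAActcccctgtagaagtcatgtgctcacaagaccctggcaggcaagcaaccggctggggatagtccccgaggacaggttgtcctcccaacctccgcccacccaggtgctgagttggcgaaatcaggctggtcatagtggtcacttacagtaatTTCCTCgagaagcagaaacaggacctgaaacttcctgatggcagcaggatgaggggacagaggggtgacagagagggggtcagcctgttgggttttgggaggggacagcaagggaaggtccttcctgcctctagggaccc

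Ctss and Ctsb are lysosomal cysteine proteases. Cathepsin S is a protease of antigen-presenting cells and microglia, and cathepsin B is present in most cells, so its signal is not specific to leukocytes. Ctss measured 266 and 229 on the fetal alcohol arrays, 252 on the isocaloric one and 226 and 323 on the control diet arrays. The fetal alcohol and isocaloric values lay between the control diet values, and the log2 difference of fetal alcohol from control diet was -0.13 ± 0.26. Ctsb measured 928 and 588 on the fetal alcohol arrays, 796 on the isocaloric one and 597 and 788 on the control diet arrays. The fetal alcohol arrays gave both the highest and the lowest value, and the log2 difference was 0.11 ± 0.28.

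The promoter window of Ctss is shown because it was the 1 window of the 6 with both motifs. It lies at chr2:185775146-185775445 on the plus strand in GRCr8, with the interferon regulatory factor motif at position -36 and GAGGAA at position -15, on the other strand. The motifs do not overlap.
Ctss: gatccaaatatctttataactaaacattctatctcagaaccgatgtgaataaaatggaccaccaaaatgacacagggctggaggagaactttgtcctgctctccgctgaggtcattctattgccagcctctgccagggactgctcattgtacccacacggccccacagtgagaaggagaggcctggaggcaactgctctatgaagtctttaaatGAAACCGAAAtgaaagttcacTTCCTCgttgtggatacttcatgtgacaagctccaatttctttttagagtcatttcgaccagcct

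None of the 12 other lysosomal genes tested passed, and 11 of the 12 were higher on control diet array 2 than on array 1. Their median log2 difference from control diet was -0.15, with 10 below 0 and 2 above, against 0.0049 over all tested probe sets, and 3 of the 12 did not overlap with control diet on the lower side, beside 17.7% of all tested probe sets. Cd63, a tetraspanin of lysosomes and exosomes, measured 648 and 560 on the fetal alcohol arrays, 1012 on the isocaloric one and 736 and 880 on the control diet arrays, a log2 difference of -0.41 ± 0.23 (limma adjusted p = 0.922). Ctsk, cathepsin K, had -0.56 ± 0.39, and its p is left out because its fetal alcohol mean lay under the filter. Ctsd, the aspartic protease cathepsin D, had -0.35 ± 0.28 (adjusted p = 0.965). Cst3, cystatin C, an inhibitor of cysteine cathepsins, had -0.27 ± 0.26 (0.965). Without fetal alcohol array 2 the difference of Ctsk was 0.01, so the lower value of this gene came from 1 array, at 49.4 and 16.6 on the fetal alcohol arrays against 38.2 and 62.2 on control diet.

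Lgals3 encodes galectin-3, a lectin of phagocytes. Its intensity was 74.2 and 35.4 on the fetal alcohol arrays, 95.5 on the isocaloric one and 58.5 and 84.8 on the control diet arrays. Fetal alcohol array 1 lay among the control diet arrays and array 2 was the lowest of the 5. The log2 difference from control diet was -0.38 ± 0.33, and it was 0.06 without fetal alcohol array 2 and -0.82 without array 1. Against isocaloric diet the difference was -0.76 ± 0.40. Spp1 encodes osteopontin, a secreted ligand of integrins and CD44. Its intensity was 27.4 and 35.05 on the fetal alcohol arrays, 38.6 on the isocaloric one and 17.7 and 95.5 on the control diet arrays. The control diet arrays gave the lowest and the highest value of all 5, a ratio of 5.41 within that group. Its log2 difference of -0.40 ± 0.53 from control diet turned to 0.56 without control diet array 2 and was -1.35 without array 1.

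Of 7 tested genes for other galectins and for osteopontin receptors none passed, and 6 were below 0. Lgals3bp, a secreted glycoprotein that binds galectin-3, measured 127 and 101 on the fetal alcohol arrays, 175 on the isocaloric one and 150 and 167 on the control diet arrays, a log2 difference of -0.45 ± 0.24 (limma adjusted p = 0.911). Itgb3, an integrin chain that binds osteopontin, had -0.56 ± 0.38 (adjusted p = 0.961), and 0.06 without control diet array 1, which measured 126 against 47.7 on array 2. Cd44, the hyaluronan and osteopontin receptor, had -0.39 ± 0.30 at its brightest probe set, and -0.004 without fetal alcohol array 1. By group means, that probe set lay over the filter only on control diet, so its p is left out.

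Cd53, a tetraspanin of leukocytes, was dim and under the filter. Its intensity was 13.8 and 19.7 on the fetal alcohol arrays, 16.4 on the isocaloric one and 20.5 and 22.4 on the control diet arrays. All 3 arrays of other groups lay below the control diet arrays, by -0.24 for fetal alcohol and -0.25 for the isocaloric array on the log2 scale. Aif1 encodes IBA1, the actin-binding protein whose antibody is the usual stain for microglia. At its brightest probe set, U17919_s_at, its intensity was 67.5 and 78.5 on the fetal alcohol arrays, 60.8 on the isocaloric one and 68.2 and 69.8 on the control diet arrays. The control diet arrays fell between the fetal alcohol arrays, and the log2 difference was 0.07 ± 0.23. The other 2 Aif1 probe sets were under the filter. U10894_s_at was under the offset on 4 of 5 arrays, with 5.97 and 19.3 on the fetal alcohol arrays, 1.56 on the isocaloric one and 5.17 and 5.42 on the control diet arrays, and U33471_at gave a log2 difference of -0.15.

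**Figure D2:**
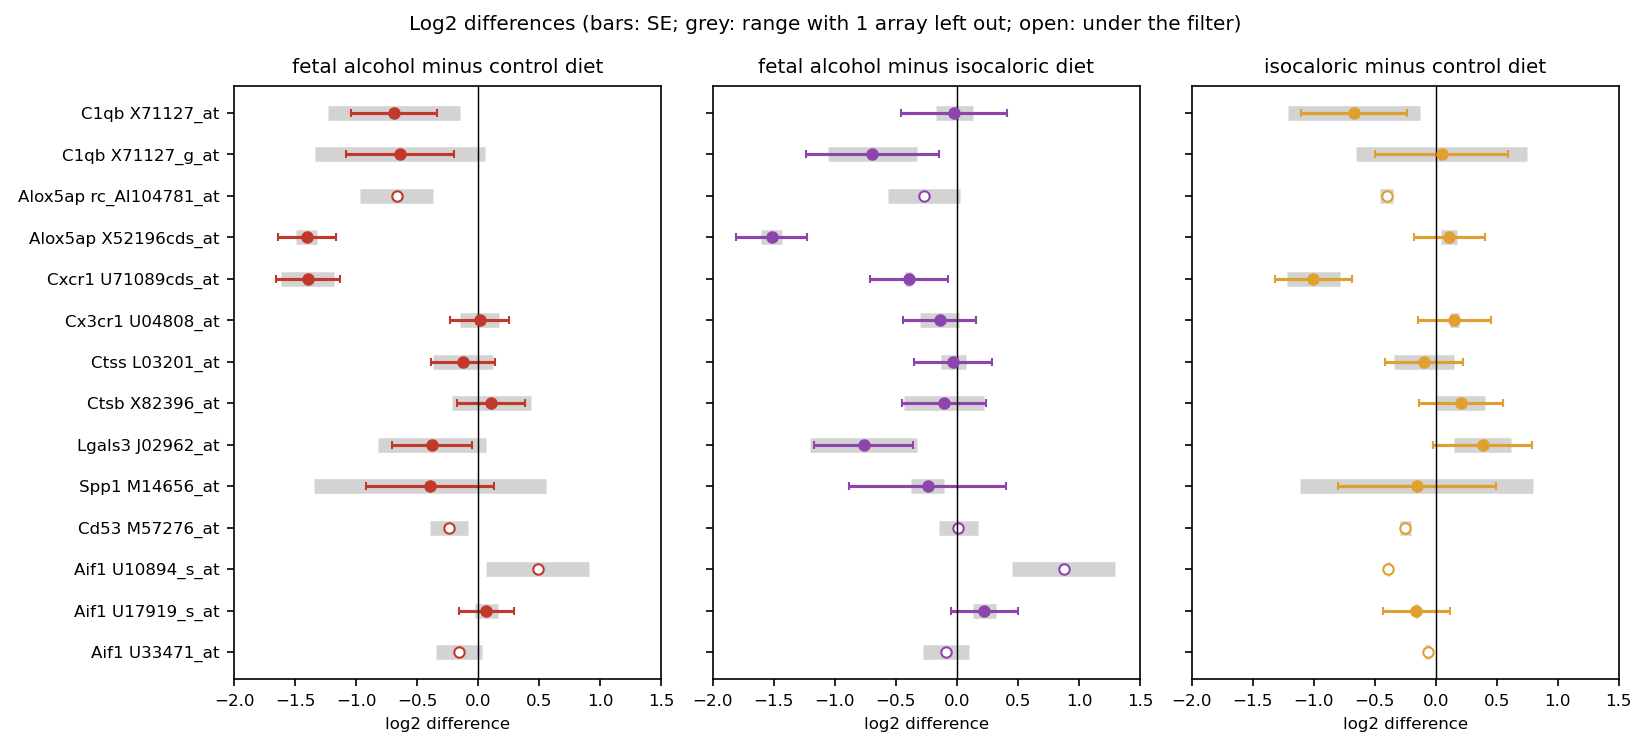
Log2 differences (horizontal axes) of the 14 probe sets in the comparisons of fetal alcohol with control diet, fetal alcohol with isocaloric diet and isocaloric with control diet, with bars for the SE, grey bands for the range when 1 array is left out and open points for probe sets under the filter. Against control diet, the bright Alox5ap probe set and Cxcr1 stand near -1.40 with narrow bands, while the bands of Spp1 and Lgals3 and of 1 C1qb probe set cross 0.

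Genes of general leukocyte surface and signalling proteins gave no call either. Of 21 tested, 13 were below 0 and 8 above, with a median log2 difference from control diet of -0.16. Lyz2, the lysozyme of macrophages, measured 32.4 and 55.6 on the fetal alcohol arrays, 52.0 on the isocaloric one and 56.2 and 84.1 on the control diet arrays, a log2 difference of -0.58 ± 0.30 (limma adjusted p = 0.911). Coro1a, an actin regulator of leukocytes that neurons also express, went the other way, with 611 and 465 on the fetal alcohol arrays, 459 on the isocaloric one and 358 and 441 on the control diet arrays (0.41 ± 0.25, adjusted p = 0.948). Antigen presentation genes had a median of 0.07 over 10 tested. Tap1, a peptide transporter of that pathway, had -0.50 ± 0.23 (adjusted p = 0.909), and B2m, the light chain of class I molecules, 0.29 ± 0.23 (0.965). The other Tap1 probe set, under the filter, gave -0.03. RT1-Ba, a class II chain, had probe sets that disagreed. The brightest gave 0.22 ± 0.23 (adjusted p = 0.965), the other tested one -0.34 ± 0.29 (0.965) and the one under the filter -0.80.

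Among 10 tested cytokine and inflammatory signalling genes the median was -0.05. Nfkb1, a subunit of the transcription factor NF-kappa-B, measured 65.8 and 55.4 on the fetal alcohol arrays, 32.5 on the isocaloric one and 24.0 and 41.2 on the control diet arrays. Both fetal alcohol arrays lay above the other 3, with a log2 difference from control diet of 0.75 ± 0.28. Nfkb1 passed the filter only through its fetal alcohol arrays, so no p is given for it. Stat3, a transcription factor downstream of cytokine receptors, had -0.51 ± 0.25 (limma adjusted p = 0.911) at its tested probe set. Its other probe set, under the filter, gave 0.20. Tnfrsf1a, a receptor for tumour necrosis factor, had 0.50 ± 0.61 (0.965), with control diet values of 19.6 and 138, and its difference turned to -0.65 without control diet array 1.

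Over all 8 companion lists, 122 genes had a probe set and 71 were tested. None passed after fetal alcohol against control diet. The 1 gene with an unadjusted p under 0.05 there, Nfkb1, passed the filter only through its fetal alcohol arrays. None passed in the comparison of isocaloric with control diet, where 0 had an unadjusted p under 0.05. The median log2 difference of fetal alcohol from control diet was -0.07, with 44 below 0 and 27 above. Without overlap, 11 of the 71 were lower (15.5%) and 4 higher (5.63%), beside 17.7% and 16.8% of all tested probe sets. Of the 71 tested, 0 were both without overlap and at least 1.5-fold lower, beside 3.91% of all tested probe sets. On the higher side 1 was, Nfkb1, beside 1.54%. Under the filter, 4 companion genes were lower by this rule, named here after their values were seen. They were Tgfb1, a growth factor, with -0.94, C3, the central complement component, with -0.71, Ctsc, cathepsin C, with -0.70, and Ptgs1, a cyclooxygenase, with -0.63. By the same rule Ifngr1 with 1.05 and Lcp2 with 0.68 were higher, also named after their values were seen. The share of all probe sets under the filter was not counted.

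**Figure D3:**
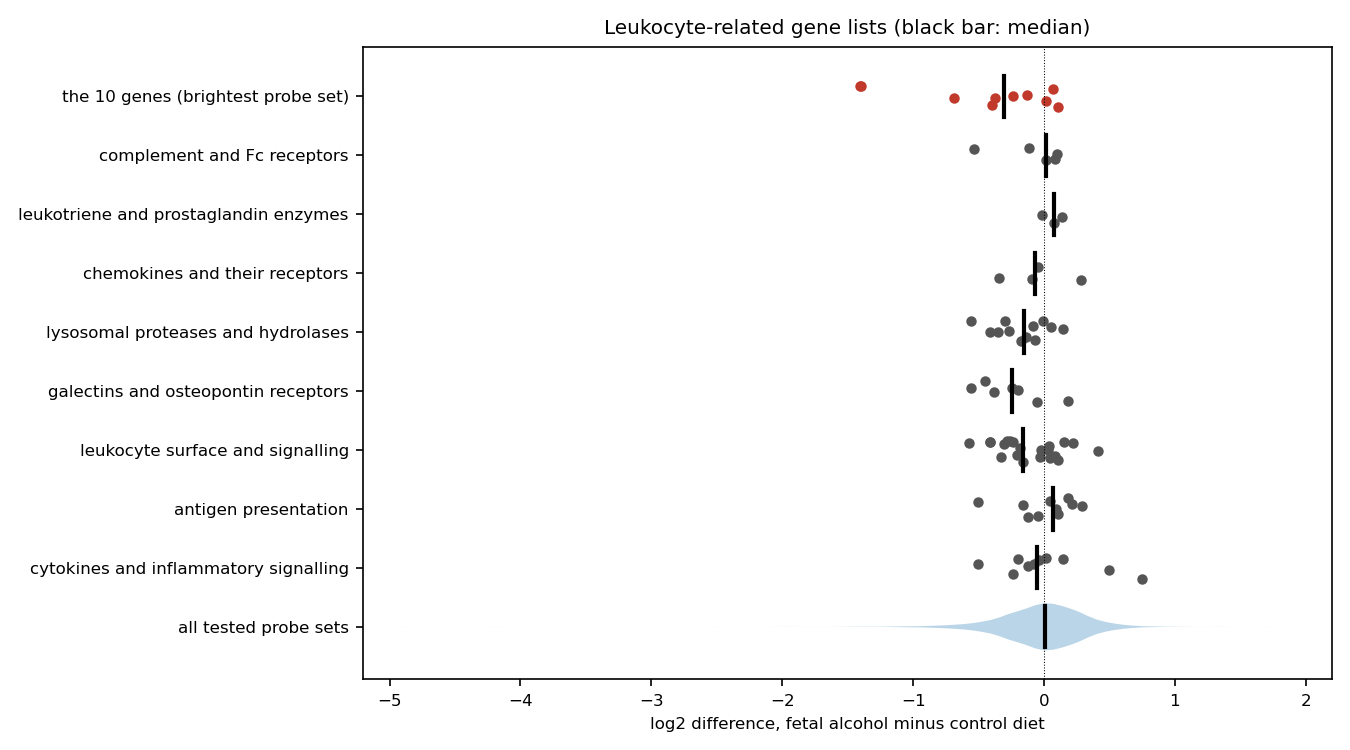
Log2 difference of fetal alcohol from control diet (horizontal axis) for the 10 genes, for the tested genes of 8 companion lists and, as a violin, for all 5244 tested probe sets, with a black bar at each median. The medians of the companion lists lie between -0.24 and 0.08, and Alox5ap and Cxcr1 lie on top of each other at -1.40 as the leftmost points of the 10 genes.

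Within the control diet pair the 10 genes had one direction, which is a description of 2 arrays whose values were known when the genes were chosen. All 14 probe sets measured more on control diet array 2 than on array 1, among them all 10 tested ones, beside 48.5% of all tested probe sets. At the brightest probe sets the median log2 difference of array 2 from array 1 was 0.42. By at least 1.5-fold, 3 of the 10 tested probe sets differed, both of C1qb and that of Spp1, beside 4.81% of all. Of the companion genes tested, 50 of 71 (70.4%) were higher on control diet array 2, and of the lysosomal genes 11 of 12. Of the fetal alcohol arrays, array 2 was lower than array 1 at 7 of the 14 probe sets and at 7 of the 10 tested ones, beside 47.3% of all tested probe sets. Meninges markers moved with the control diet arrays in the same direction, with 8 of 8 higher on array 2 and a median of 0.53, and the part of meningeal tissue in the values of the 10 genes was not tested.

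**Figure D4:**
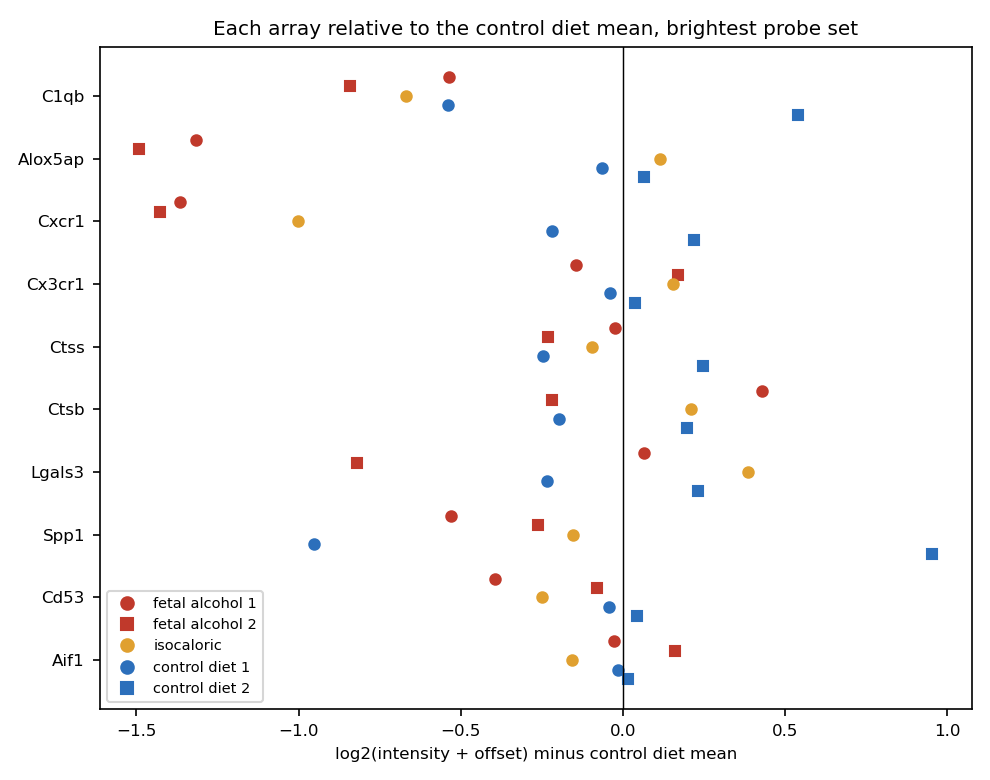
log2(intensity + 10.6) of each array minus the control diet mean (horizontal axis) for the 10 genes at their brightest probe sets, with red for fetal alcohol, amber for isocaloric and blue for control diet, circles for replicate 1 and squares for replicate 2. The blue square lies right of the blue circle for every gene, by 1.08 for C1qb and 1.91 for Spp1, and the red points stand apart from the blue ones for Alox5ap and Cxcr1.

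The comparison of isocaloric with control diet shares its control diet arrays with the values on which the genes were chosen, so it is not independent of that choice. None of the 10 tested probe sets passed, and limma called 0 of 5244 (0% called), with 357 at an unadjusted p under 0.05. The isocaloric array is a single sample, taken to vary like the others. It lay below both control diet arrays at 3 of the 10 tested probe sets and above both at 4, beside 37.5% and 38.3% of all tested probe sets. The largest difference among the tested probe sets was that of Cxcr1, given above. C1qb had -0.67 ± 0.43 at X71127_at (limma adjusted p = 0.853) and 0.05 ± 0.54 at X71127_g_at (0.987). Lgals3 had 0.39 ± 0.40 (adjusted p = 0.910), Ctsb 0.21 ± 0.34 (0.948), Ctss -0.10 ± 0.32 (0.967) and Aif1 -0.16 ± 0.28 (0.952). Alox5ap had 0.11 ± 0.29 at X52196cds_at, which passed the filter through its isocaloric and control diet arrays. Spp1 had -0.15 ± 0.65 and passed only through control diet array 2. For these probe sets of Alox5ap and Spp1 no p is given. The median of the 10 genes was -0.13, beside 0.02 over all tested probe sets, and it turned to 0.17 without control diet array 2. These p-values do not show that the genes were alike on the alcohol-free diets.

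Set against the isocaloric array, the 10 genes had a median log2 difference of -0.12 after fetal alcohol, beside -0.0029 over all tested probe sets. Limma called 0 of 5244 in this comparison (0% called), with 221 at an unadjusted p under 0.05. Both fetal alcohol arrays lay below the isocaloric array at 5 of the 10 tested probe sets and above it at 1, beside 28.4% and 31.5% of all. Among the tested probe sets, the bright one of Alox5ap and that of Lgals3 had the largest differences, given above, followed by X71127_g_at of C1qb with -0.69 ± 0.54. The remaining genes lay between -0.40 and 0.22 at their brightest probe sets. This comparison shares the fetal alcohol arrays with the one against control diet and is no independent repeat of it.

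No marker of another cell type passed in the comparison with control diet. Choroid plexus genes, of which 6 had a probe set, summed to 1178 and 274 on the fetal alcohol arrays, 6072 on the isocaloric one and 5679 and 5332 on the control diet arrays. All 4 tested were below both control diet arrays, Ttr at 1004 and 69.2 on the fetal alcohol arrays against 5391 on the isocaloric array and 5297 and 4886 on control diet, beside 17.7% of all tested probe sets. Ttr, transthyretin, differed from control diet on the log2 scale by -4.16 ± 0.92 (limma adjusted p = 0.488), and Aqp1, a water channel, by -1.21 ± 0.24. Aqp1 passed the filter only through its isocaloric and control diet arrays, so its p is left out. Ttr made up most of the choroid plexus sum on every array but fetal alcohol array 2. Under the filter, Kl had -0.10 and Kcnj13, under the offset on all arrays, 0.03, and both overlapped with control diet. The 8 meninges genes summed to 2380 and 1233 on the fetal alcohol arrays, 2015 on the isocaloric one and 2332 and 3390 on the control diet arrays, with all 8 differences below 0 and 3 of the 8 without overlap, beside the same 17.7%. Col3a1, a collagen chain, had -1.14 ± 0.54 (limma adjusted p = 0.909) and Aldh1a2, a retinoic acid synthase, -0.86 ± 0.33 (0.820). The choroid plexus sum was low on both fetal alcohol arrays and highest on the isocaloric array, as was the bright Alox5ap probe set, while Cxcr1 was low on the isocaloric array too. The part of choroid plexus and meninges in the low signals was not tested.

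Neutrophils, which carry Cxcr1, left little signal. Of 6 neutrophil genes on the array 2 were under the offset on all 5 arrays and 1 was tested, RatNP-3b, a neutrophil defensin. RatNP-3b intensities were 28.0 and 36.1 after fetal alcohol, 33.0 on isocaloric diet and 43.0 and 39.9 on control diet. Both fetal alcohol arrays and the isocaloric array were thus below the control diet arrays. The log2 difference of fetal alcohol from control diet was -0.29 ± 0.25. RatNP-3b passed the filter only through its control diet arrays, so its p is left out. Under the filter, Defa5 went the other way, with 24.1 and 24.5 after fetal alcohol against 14.2 and 21.2 on control diet (0.32). S100a9 had 0.13, Mmp9 -0.21, S100a8 -0.09 and Mmp8 -0.06, and these overlapped with control diet. The neutrophil sum was 86.7 and 97.0 on the fetal alcohol arrays, 95.7 on the isocaloric one and 107 and 92.8 on the control diet arrays, so the groups overlapped. Red blood cell genes summed to 8096 and 5530 on the fetal alcohol arrays, 6398 on the isocaloric one and 6573 and 7502 on the control diet arrays, and also overlapped. The 9 microglia and macrophage markers on the array, 3 of which are among the 10 genes, summed to 573 and 521 on the fetal alcohol arrays, 536 on the isocaloric one and 588 and 806 on the control diet arrays. Of the 7 tested, 3 were below 0 and 4 above, with a median log2 difference from control diet of 0.01. The fetal alcohol sums lay below both control diet sums, by little against array 1. C1qb, chosen with these values known, gave 354 of the 806 on control diet array 2, so nothing is read from the order of the sums. The part of these cell types in the signals of the 10 genes was not tested.

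**Figure D5:**
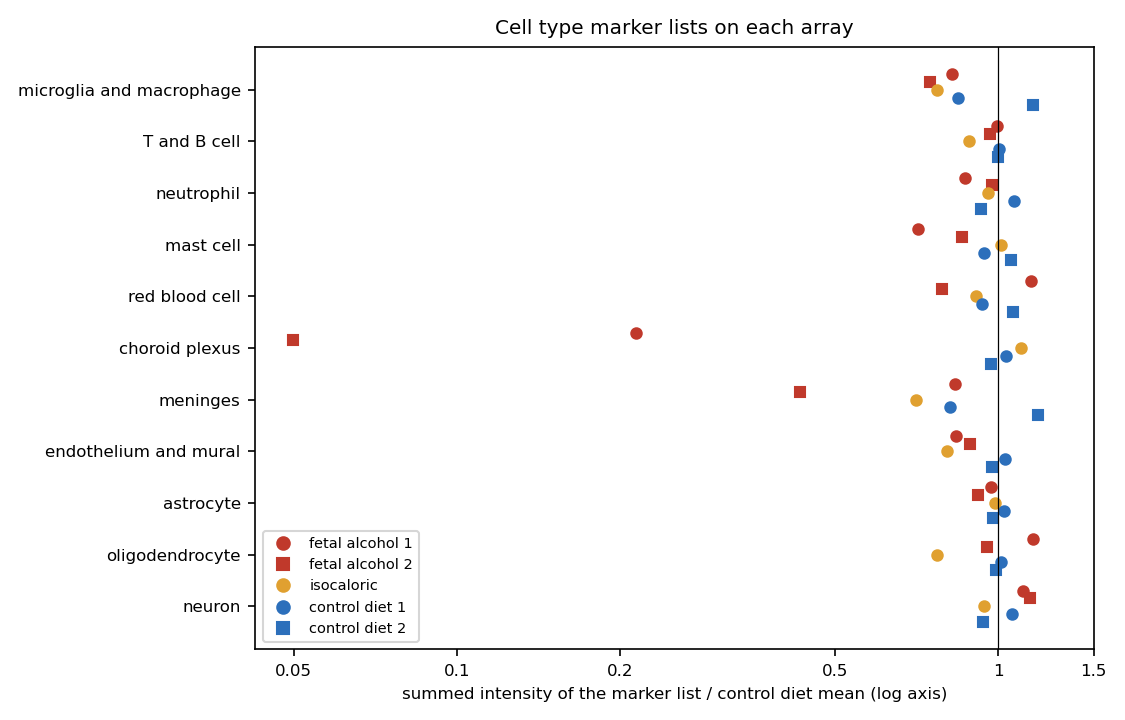
Summed intensity of each cell type marker list on each array relative to the mean of the control diet arrays (horizontal log axis), with red for fetal alcohol, amber for isocaloric and blue for control diet, circles for replicate 1 and squares for replicate 2. The choroid plexus sums of 1178 and 274 on the fetal alcohol arrays stand far left of all others, while the neutrophil and red blood cell sums overlap between the groups.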

How the data were processed

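The deposited table holds an intensity for each probe set, linear and not logged. Which software and scaling the authors used is not given in the sources used here, and neither detection calls nor scan dates were used. Trimmed means (2% at each end) lay between 150.19 and 150.22 on the 5 arrays, so the deposited values were used as they were. The 59 control probe sets were left out. The other 8740 became log2(intensity + 10.6), the offset being the 20th percentile of all values, and 5244 at or above the 40th percentile of mean log2 were tested in limma 3.58.1 (R 4.3.3), with lmFit, eBayes, an intensity trend, 2-sided tests and Benjamini-Hochberg adjustment over all of them at 0.05. The 3 groups shared 1 fit with 2 residual and 6.30 prior degrees of freedom, and the fit was tested on simulated arrays. Precision is limited by the number of arrays.

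The members and lists were chosen with earlier results of these data known. Genes were named from the platform annotation, with current symbols from RefSeq, through 7006 probe sets with exactly 1 symbol. The brightest probe set stood for a gene in lists. Named are all 10 genes, of each companion list the 3 tested genes with the largest differences from control diet and any called, of each list of other cells the 2 largest, and 7 partner genes. Some genes under the filter, and P2ry12, are named besides these. Promoter windows came from RefSeq in build GRCr8, and a window was printed in the direction of its gene.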

Additional observations from a re-analysis of the deposited data

How the results depend on the processing

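Against control diet, no companion gene passed under the alternatives run, after fetal alcohol or isocaloric diet, and no probe set of the 10 genes after isocaloric diet. Member calls after fetal alcohol were not counted. Counts over all probe sets moved from 0: for fetal alcohol against control diet to 1 with quantile normalization, 9 with equal medians, 1 with the offset at the 40th percentile and 7 with the replicate block, and for fetal alcohol against isocaloric diet to 3, 3 and 4 under quantile normalization, equal medians and the replicate block. With 1 array left out they ran from 0 to 22, 0 to 22 and, for isocaloric against control diet, 0 to 14, in fits whose spread came from the 1 group with 2 arrays left. A block with the fetal alcohol numbers exchanged, chosen after seeing the data, gave 22, 7 and 21. Same-numbered arrays deviated from their group means with a correlation of -0.11, so the numbers were not taken as a pairing. With 1 array left out, the median of the 10 genes ran from -0.49 to -0.047 against control diet and from -0.23 to 0.17 for isocaloric against control diet. Member probe sets without overlap, a count added after seeing the data, ran from 4 to 9 below and from 1 to 4 above, in part because fewer arrays overlap less, and both scalings gave 2 above. For isocaloric minus control diet, X71127_g_at of C1qb was -0.65 without control diet array 1 and 0.75 without array 2, and Ctss -0.34 and 0.15; the cause was not tested. With an offset of 1 the Alox5ap and Cxcr1 differences from control diet were each -1.78, and with the offset at the 40th percentile -0.94 and -0.93. With 1 or 2 arrays per group and no detection calls, dim probe sets cannot be told from background.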

Other observations

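None of the markers of mast cells, granule-bearing cells also found in the meninges, passed after fetal alcohol. Of 11 on the array 4 were tested, and their log2 differences from control diet were all negative, with a median of -0.36. Without overlap 2 of the 4 were lower, beside 17.7% of all tested probe sets. Under the filter, Mcpt4, a mast cell protease, had 0.23, Fcer1a, a chain of the IgE receptor, 0.04 and Mcpt9 0.03. The remaining ones were negative, Ms4a2 with -0.39, Cpa3 with -0.29, Mcpt1 with -0.20 and Hdc with -0.13. Ms4a2 and Mcpt1 lay below both control diet arrays, and Mcpt9, under the offset on all arrays, above both. Cma1, a chymase, measured 99.4 and 111 on the fetal alcohol arrays, 190 on the isocaloric one and 142 and 147 on the control diet arrays (-0.43 ± 0.22, limma adjusted p = 0.911). Tpsab1, a tryptase, measured 63.2 and 61.6 on the fetal alcohol arrays, 111 on the isocaloric one and 70.4 and 117 on the control diet arrays (-0.48 ± 0.27, adjusted p = 0.946).

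Markers of lymphocytes showed no common direction after fetal alcohol, with 2 of 3 tested below 0 and a median of -0.02. Cd79b, part of the B cell receptor, was low on the isocaloric array: its intensities were 14.9 there, 52.5 and 41.7 after fetal alcohol and 50.8 and 41.0 on control diet. Its log2 difference of isocaloric from control diet was -1.14. Cd79b passed the filter through its fetal alcohol and control diet arrays, so no p is given for this difference. Lck, a kinase of T cells, had a log2 difference of fetal alcohol from control diet of -0.05 ± 0.24 (adjusted p = 0.997), and Ptprc, the leukocyte antigen CD45, -0.18 ± 0.25 (0.974).

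Among markers of vessels and blood, Acta2, smooth muscle actin, had -0.47 ± 0.24 after fetal alcohol against control diet (limma adjusted p = 0.911) at its brightest probe set. Its other probe sets gave -0.52 ± 0.31 (0.946) and, under the filter, -2.14. That last one measured 7.21 and 5.12 after fetal alcohol, 3.91 on isocaloric diet and 95.9 and 40.8 on control diet. Pdgfrb, a receptor of pericytes, had -0.43 ± 0.24 (limma adjusted p = 0.922). Alas2, the haem synthesis enzyme of red cells, had -0.50 ± 0.24 (0.911), and Hbb, a globin chain, -0.11 ± 0.21 (0.994). Of astrocyte markers S100b had 0.26 ± 0.24 (limma adjusted p = 0.965) and Glul, glutamine synthetase, -0.25 ± 0.19 (0.965) at its brightest probe set. The other Glul probe sets gave -0.24 ± 0.19 (limma adjusted p = 0.965), -0.29 ± 0.19 (0.961) and -0.86 ± 0.29 (0.725). Of the myelin genes Mog had 0.35 ± 0.37 (limma adjusted p = 0.965) and Mbp 0.24 ± 0.30. By group means, Mbp lay over the filter only in the fetal alcohol group, so its p is left out. The other Mog probe set, under the filter, gave -0.12. Nefl, a neurofilament, had 0.44 ± 0.27 (limma adjusted p = 0.946) and Nrgn 0.32 ± 0.20 (0.961).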
